A study of Homo sapiens with 18 samples.

Results

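The expression of 9 genes of the complement and acute-phase response was followed in 786-O, an established line of human clear-cell kidney cancer in which the VHL tumour suppressor is not functional. They are 9 of the 27086 genes to which the deposited transcripts were summed. The 9 genes are the acute-phase genes SAA1, SAA2, LCN2 and PTX3 and the complement genes C3, CFB, CFI, C1R and C1S. They were picked by name with their hairpin responses in these same libraries already known, so their changes are described here and support nothing by themselves. In the USP13 experiment, 786-O cells carried the hairpin sh52 or the hairpin sh50 against the deubiquitinase USP13, or a control hairpin, shCtrl. In the ZHX2 experiment, 786-O cells carried the hairpin sh45 or the hairpin sh43 against ZHX2, a zinc-finger and homeobox transcription factor, or a separate set of shCtrl libraries. Each of the 6 groups held 3 RNA-seq libraries, which gives 18 libraries in all. Whether the replicates were grown as separate cultures is not stated in the labels, so p-values cover only the spread between libraries, which may be technical.

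The acute phase is the change in secreted proteins that follows infection or injury. The liver is its main source, and epithelial cells, those of the kidney tubule among them, make several of the same proteins locally under interleukin-6, interleukin-1 and tumour necrosis factor, through STAT3, C/EBP and NF-kB factors. Complement is a cascade of plasma proteases and their substrates: C1r and C1s start the classical pathway, C3 is the step that all pathways share, factor B drives the alternative pathway, and factor I shuts the cascade down by cutting C3b and C4b.

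The depth was alike in all groups, with a total estimated count of 11192561 to 16511290 per library. USP13 averaged 16.9 CPM (counts scaled to library size with TMM factors) in sh52 libraries, 18.1 CPM in sh50 libraries and 34.5 CPM in their shCtrl libraries, a log2 change of -1.03 ± 0.11 (SE) under sh52 and -0.92 ± 0.11 under sh50. ZHX2 averaged 84.2 CPM in sh45 libraries, 40.2 CPM in sh43 libraries and 343 CPM in their shCtrl libraries, a log2 change of -2.03 ± 0.06 under sh45 and -3.09 ± 0.06 under sh43. A protocol text in the labels lists hairpins 43 and 45 under USP13, whereas the titles assign them to ZHX2. USP13 averaged 46.5 CPM in sh45, 35.2 CPM in sh43 and 41.3 CPM in shCtrl libraries of that experiment, and the titles were followed. The log2 change of USP13 under sh43 was -0.23 ± 0.08 (edgeR, adjusted p = 0.0155). That of ZHX2 was -0.17 ± 0.05 under sh52 (adjusted p = 0.0467) and -0.20 ± 0.05 under sh50 (0.00861). The part of these smaller changes in the results was not tested. The library sh52 replicate 1 stood apart with 15490 genes detected, against 15867 to 16307 in the other 17, and results that change without it are marked below. Mitochondrial ribosomal RNA made up 3.54% to 3.80% of the counts in sh52 libraries, 4.11% to 4.43% in sh50 libraries and 2.54% to 2.70% in their shCtrl libraries, and 2.83% to 3.35% in sh45 libraries, 1.51% to 1.57% in sh43 libraries and 1.18% to 1.32% in their shCtrl libraries. Its part in the results was not tested. All 8 kidney tubule and renal carcinoma markers averaged 1 CPM or more in every group. Of the 10 leukocyte markers, CD68, a lysosomal protein, gave nearly all counts. The summed level of the leukocyte list was 37.1 to 38.8 CPM in sh52, 19.3 to 24.3 CPM in sh50 and 29.9 to 32.8 CPM in shCtrl libraries of the USP13 experiment, and 57.8 to 62.0 CPM in sh45, 17.9 to 18.6 CPM in sh43 and 37.2 to 45.6 CPM in shCtrl libraries of the ZHX2 experiment. PTPRC, which encodes the leukocyte marker CD45, was at 0 in all ZHX2 libraries and at 2 counts or fewer in each USP13 library, and CD3E and MPO were at 0 in all 18. The part of these genes in the results was not tested. Of the 8 hepatocyte markers, F2 (prothrombin) was the most abundant, and the summed list gave 6.36 to 7.83 CPM in sh52, 4.01 to 5.28 CPM in sh50 and 3.51 to 4.30 CPM in shCtrl libraries, and 5.43 to 6.62 CPM in sh45, 1.83 to 2.87 CPM in sh43 and 13 to 13.5 CPM in shCtrl libraries. APOA2 and TTR were at 0 in all of them.

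Promoters of members are shown first, since acute-phase genes are read by NF-kB, C/EBP and STAT factors. RefSeq promoter windows of 300 bases, 250 before and 50 after the start, were at hand for 5 of the 9 members (PTX3, CFB, CFI, LCN2 and C1R), and those of the 4 with a called change of the highest size are printed 5′ to 3′ on the strand of the gene, with coordinates of build GRCh38.p14. The PTX3 window is chr3:157436600-157436899 on the plus strand, and the CFB window is chr6:31945845-31946144 on the plus strand. The CFI window is chr4:109801950-109802249 on the minus strand, and the LCN2 window is chr9:128149203-128149502 on the plus strand. Capitals mark every match, on either strand, to GGG and CC with 5 free bases between them (a kappa-B form), TTNNGNAA (a C/EBP form) or TTCNNNGAA (a STAT form), where N is any base. Overlapping matches merge into a single run of capitals, no kappa-B match overlapped a match to another form, and a kappa-B match that has the form on both strands is counted on each. The STAT form is its own reverse complement and is counted once.
PTX3: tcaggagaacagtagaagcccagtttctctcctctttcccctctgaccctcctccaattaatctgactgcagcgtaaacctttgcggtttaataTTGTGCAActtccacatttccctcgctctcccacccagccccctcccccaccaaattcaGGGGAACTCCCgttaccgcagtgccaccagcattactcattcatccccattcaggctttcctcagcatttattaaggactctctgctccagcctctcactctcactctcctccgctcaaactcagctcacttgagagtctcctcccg
CFB: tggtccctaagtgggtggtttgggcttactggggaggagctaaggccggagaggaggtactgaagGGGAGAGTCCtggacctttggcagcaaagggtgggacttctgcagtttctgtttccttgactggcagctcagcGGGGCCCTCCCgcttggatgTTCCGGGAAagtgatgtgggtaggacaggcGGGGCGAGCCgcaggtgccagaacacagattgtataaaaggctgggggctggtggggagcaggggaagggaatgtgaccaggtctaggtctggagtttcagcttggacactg
CFI: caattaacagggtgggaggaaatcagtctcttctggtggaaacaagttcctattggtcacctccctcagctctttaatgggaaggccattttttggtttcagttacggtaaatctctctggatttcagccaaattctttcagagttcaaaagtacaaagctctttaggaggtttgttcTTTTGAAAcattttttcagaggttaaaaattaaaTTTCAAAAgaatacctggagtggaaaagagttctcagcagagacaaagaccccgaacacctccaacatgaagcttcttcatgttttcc
LCN2: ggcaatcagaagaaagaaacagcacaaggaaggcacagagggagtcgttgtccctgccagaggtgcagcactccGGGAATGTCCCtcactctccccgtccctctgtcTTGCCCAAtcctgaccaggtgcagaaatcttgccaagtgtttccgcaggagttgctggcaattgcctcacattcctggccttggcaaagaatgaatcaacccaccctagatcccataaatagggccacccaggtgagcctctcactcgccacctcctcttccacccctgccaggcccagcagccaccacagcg

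The PTX3 window held 3 kappa-B matches that share 1 place, starting 97 and 96 bases before the start, and 1 C/EBP match 156 bases before it. The CFB window held 5 kappa-B matches in 3 places, the nearest starting 62 bases before the start, and 1 STAT match 92 bases before it. The LCN2 window held 2 overlapping kappa-B matches, 176 and 175 bases before the start, and 1 C/EBP match. The CFI window held 2 C/EBP matches, 72 and 38 bases before the start, and no kappa-B or STAT match. Of all 35116 RefSeq windows of the same length, 58.7% held the kappa-B form, 36.8% the C/EBP form and 7.66% the STAT form, so that the kappa-B form in particular is common. The matches describe letters and show no binding.

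SAA1 and SAA2 lie on chromosome 11 and are near copies, which bears on how their reads are divided. The open reading frames of the SAA1 transcripts and of the SAA2 transcript NM_030754 are 369 bases each in GENCODE release 29, while that of the SAA2 transcript NM_001127380 is 252 bases. Those of SAA1 and of NM_030754 differ at 11 positions, an identity of 97%. The stretch of 120 bases that holds 10 of these differences, bases 204 to 323 of each reading frame, is printed with the differing bases in capitals.
SAA1: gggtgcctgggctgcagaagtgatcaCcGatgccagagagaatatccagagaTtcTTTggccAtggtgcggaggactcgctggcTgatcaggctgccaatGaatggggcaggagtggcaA
SAA2: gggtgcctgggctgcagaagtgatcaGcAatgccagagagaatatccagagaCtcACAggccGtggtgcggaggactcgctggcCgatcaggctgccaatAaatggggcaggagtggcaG
Outside this stretch reads of these frames cannot be assigned by sequence except at the remaining difference. Shared words of 31 bases were counted in the GENCODE sequences, which differ in length from the quantified transcripts. For NM_001127380 the lengths are 1022 and 2043 bases, so the shares in the quantified transcripts may differ. Of the words in the SAA2 sequences, 46.9% in NM_030754 and 20.8% in NM_001127380 also occur in SAA1. Of those in the SAA1 sequences, 34.3% to 42.7% occur in SAA2. Salmon divides such reads between both genes. The separate levels of SAA1 and SAA2 are therefore estimates, and each comparison was also made with their counts summed. SAA2 also overlaps the readthrough gene SAA2-SAA4, which averaged 2.91 CPM in sh45, 0.596 CPM in sh43 and 1.36 CPM in shCtrl libraries of the ZHX2 experiment and at most 0.323 CPM in any USP13 library.

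**Figure D1:**
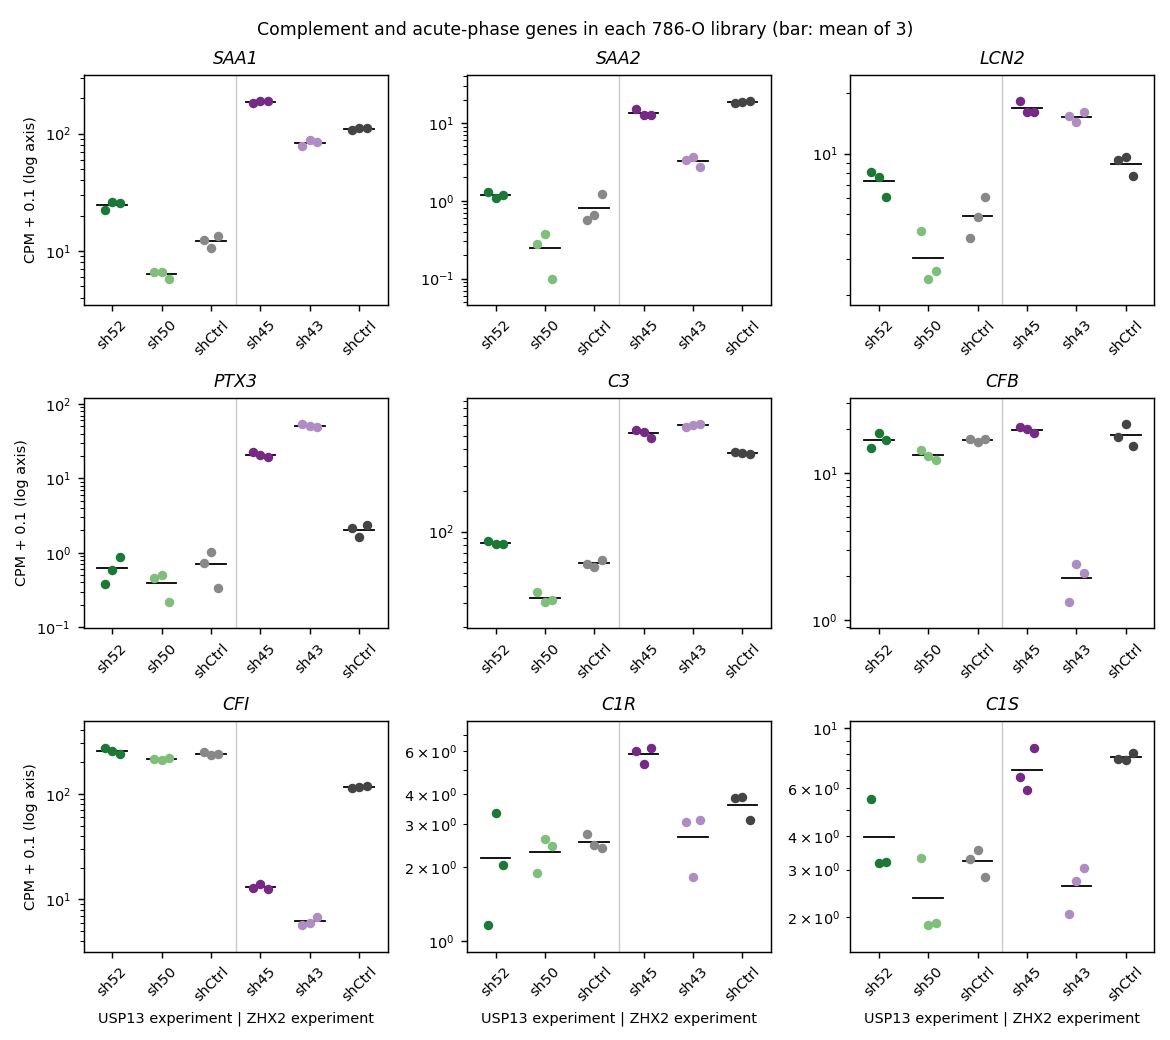
Level of each member in every library, as TMM-scaled CPM plus 0.1 on a log axis; points are libraries, bars are means of 3, and the grey line separates the USP13 experiment (left) from the ZHX2 experiment (right). SAA1 and C3 sit above their shCtrl libraries under sh52 and below them under sh50, and CFI sits far below its shCtrl libraries under both ZHX2 hairpins while PTX3 sits far above.

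The 2 USP13 hairpins parted on SAA1 and C3 although they lowered USP13 alike. Under sh52, 2 of the 8 members tested rose and none fell, where 5.45% of the 13715 genes tested rose and 6.56% fell. Under sh50, 6 of the 8 fell and none rose, where 11.3% of all genes tested fell and 10.2% rose. No member was called in the same direction by both hairpins, where 3.26% of all genes were called higher and 4.16% lower by both. Here and below a gene is said to have risen or fallen when its adjusted p, from edgeR's quasi-likelihood test over all genes of the experiment, was under 0.05. Because the members were chosen with these contrasts known, nothing is read from the distance between their counts and those shares. The median log2 change of the 8 members was 0.40 under sh52 and -0.62 under sh50, where the medians over all genes were -0.001 and 0.003. Both contrasts use the same shCtrl libraries, and in bulk RNA a change in the share of cells that express a gene and a change in its RNA per cell cannot be told apart.

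SAA1 encodes serum amyloid A1, an apolipoprotein of high-density lipoprotein that the acute phase raises steeply. It had 22.0, 25.8 and 25.7 CPM in sh52 libraries, 6.53, 6.53 and 5.71 CPM in sh50 libraries and 12.2, 10.5 and 13.2 CPM in shCtrl libraries. No library of 1 group overlapped another, with sh52 highest and sh50 lowest. The log2 change was 1.04 ± 0.12 (SE) under sh52 and -0.93 ± 0.14 under sh50, and sh52 exceeded sh50 by 1.97 ± 0.13. SAA2, the second inducible serum amyloid A gene, was close to the detection limit, with 1.20, 0.969 and 1.08 CPM in sh52 libraries, 0.179, 0.272 and 0 CPM in sh50 libraries and 0.468, 0.564 and 1.12 CPM in shCtrl libraries. The sh52 and shCtrl libraries overlapped, and all 3 sh50 libraries lay below both. SAA2 fell under sh50, with a log2 change of -2.24 ± 0.74, and differed under sh52 by 0.61 ± 0.52 (edgeR, adjusted p = 0.497). With SAA1 and SAA2 summed, the log2 change was 1.02 under sh52 and -0.98 under sh50.

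LCN2 encodes lipocalin 2, a siderophore-binding protein that injured kidney tubules secrete. It had 7.99, 7.59 and 6.03 CPM in sh52 libraries, 4.02, 2.31 and 2.52 CPM in sh50 libraries and 3.74, 4.76 and 5.98 CPM in shCtrl libraries. All sh52 libraries lay above the shCtrl libraries, narrowly for replicate 3, while sh50 replicate 1 lay within the shCtrl range. LCN2 fell under sh50, with a log2 change of -0.74 ± 0.24, and its log2 change under sh52 was 0.58 ± 0.22 (edgeR, adjusted p = 0.0877). PTX3, which encodes the pattern-recognition protein pentraxin 3, was too low to be tested in this experiment. It averaged 0.519 CPM in sh52, 0.295 CPM in sh50 and 0.601 CPM in shCtrl libraries, and the 3 ranges overlapped.

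C3, the central complement component, repeated the order of SAA1. It had 84.8, 81.1 and 81.6 CPM in sh52 libraries, 36.0, 30.6 and 31.7 CPM in sh50 libraries and 57.8, 55.3 and 62.3 CPM in shCtrl libraries, with no overlap between groups. The log2 change was 0.50 ± 0.07 under sh52 and -0.84 ± 0.08 under sh50, and sh52 exceeded sh50 by 1.34 ± 0.08. CFB, which encodes factor B, had 14.7, 18.5 and 16.7 CPM in sh52 libraries, 14.3, 12.9 and 12.1 CPM in sh50 libraries and 17.0, 16.2 and 16.9 CPM in shCtrl libraries. It fell under sh50, with a log2 change of -0.36 ± 0.12, and its log2 change under sh52 was -0.01 ± 0.12 (edgeR, adjusted p = 0.975). CFI, which encodes factor I, had 273, 255 and 239 CPM in sh52 libraries, 214, 208 and 219 CPM in sh50 libraries and 247, 234 and 238 CPM in shCtrl libraries. The sh50 libraries lay below all others, and the log2 change was 0.10 ± 0.06 under sh52, which did not pass, and -0.16 ± 0.06 under sh50. The proteases C1R and C1S of the C1 complex were low, at 1.06 to 5.37 CPM over the 9 libraries. Neither passed under either hairpin, and both estimates under sh52 turn sign without sh52 replicate 1, to 0.07 for C1R and -0.02 for C1S.

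Of the 6 falls under sh50, those of SAA1 and C3 were called in every fit that left out 1 library. The SAA2 call was lost without sh50 replicate 1 (edgeR, adjusted p = 0.0662) or replicate 3 (0.148) and without shCtrl replicate 2 (0.0524) or replicate 3 (0.145). The LCN2 call was lost without sh50 replicate 2 (adjusted p = 0.149) or replicate 3 (0.115) and without shCtrl replicate 2 (0.0791) or replicate 3 (0.144). The CFB call was lost without sh50 replicate 2 (adjusted p = 0.104) or replicate 3 (0.132) and without shCtrl replicate 1 (0.0975), 2 (0.0716) or 3 (0.0733). The CFI call was lost without sh50 replicate 1 (adjusted p = 0.1) or replicate 2 (0.156), without shCtrl replicate 1 (0.145), 2 (0.0634) or 3 (0.0565) and with upper-quartile scaling (0.051). Set directly against sh50, 5 of the 8 members were higher in sh52 libraries, where 5.48% of all genes tested were higher, and none was lower, where 4.74% were lower. These were SAA1, C3, SAA2 with a log2 difference of 2.86 ± 0.69, LCN2 with 1.32 ± 0.23 and CFI with 0.26 ± 0.06. In sh52 against sh50 libraries, CFB differed by 0.35 ± 0.12 (edgeR, adjusted p = 0.0662), C1S by 0.81 ± 0.30 (0.0824) and C1R by -0.13 ± 0.34 (0.862). The CFB difference passed without sh52 replicate 1 (0.43, adjusted p = 0.0269), and that of C1S passed without sh50 replicate 1 (1.11, adjusted p = 0.0468). Over all 13715 genes, 20 genes (0.146%) were called in opposite directions by the 2 hairpins, SAA1 and C3 among them.

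**Figure D2:**
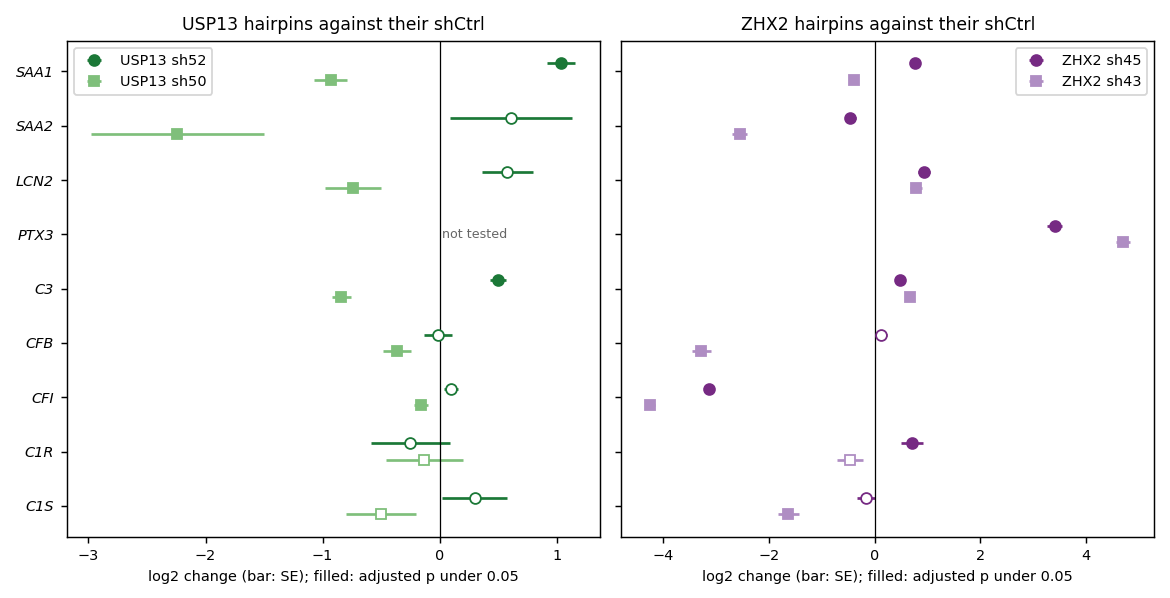
Log2 change of each member under each hairpin against the shCtrl libraries of its own experiment, USP13 on the left and ZHX2 on the right; bars are standard errors from the fit of 9 libraries, and filled symbols have an adjusted p under 0.05. SAA1 is 1.04 under sh52 and -0.93 under sh50, and CFI is -3.13 under sh45 and -4.24 under sh43.

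In the ZHX2 experiment members moved in both directions under each hairpin. PTX3, LCN2 and C3 rose and CFI and SAA2 fell under both hairpins, while CFB and C1S fell under sh43 and did not pass under sh45. Under sh45, 5 of the 9 members rose, where 25.3% of the 13604 genes tested rose, and 2 fell, where 27.3% fell. Under sh43, 3 rose, where 33.5% of all genes rose, and 5 fell, where 35.2% fell. The median log2 change of the members was 0.48 under sh45 and -0.47 under sh43, where the medians over all genes were -0.007 and -0.022. Both hairpins were set against the same shCtrl libraries. Of the members, 3 were called higher by both hairpins, where 14.1% of all genes were, and 2 lower by both, where 15.9% were.

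PTX3 had 22.5, 20.4 and 19.4 CPM in sh45 libraries, 53.1, 51.0 and 48.6 CPM in sh43 libraries and 2.07, 1.52 and 2.26 CPM in shCtrl libraries. The 3 groups lay far apart, and the log2 change was 3.40 ± 0.14 (SE) under sh45 and 4.70 ± 0.13 under sh43, 10.6-fold and 25.9-fold. PTX3 lies on chromosome 3 within the annotated bounds of VEPH1, and the libraries do not keep strand. VEPH1 itself fell, to 5.22 CPM in sh45 and 3.70 CPM in sh43 libraries, against 11.8 CPM in shCtrl libraries.

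CFI went the other way. It had 12.8, 14.0 and 12.4 CPM in sh45 libraries, 5.62, 5.88 and 6.76 CPM in sh43 libraries and 112, 115 and 117 CPM in shCtrl libraries. The groups did not overlap, and the log2 change was -3.13 ± 0.08 under sh45 and -4.24 ± 0.09 under sh43. Of the 3 annotated CFI transcripts, NM_000204 held 40.4% ± 3.67 (SD, n = 3) of the CFI counts in sh45, 39.2% ± 4.81 in sh43 and 39.1% ± 1.08 in shCtrl libraries. In the USP13 experiment it held 39.9% ± 0.707 in sh52, 39.6% ± 0.114 in sh50 and 39.5% ± 0.394 in shCtrl libraries, so the share did not part any groups beyond the spread of the libraries.

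The acute-phase genes SAA1 and SAA2 both fell under sh43 and parted under sh45. SAA1 had 184, 189 and 188 CPM in sh45 libraries, 77.5, 87.8 and 84.6 CPM in sh43 libraries and 107, 112 and 112 CPM in shCtrl libraries. It rose under sh45, with a log2 change of 0.76 ± 0.05, and fell under sh43, with -0.40 ± 0.06, and no group overlapped another. SAA2 had 14.9, 12.5 and 12.7 CPM in sh45 libraries, 3.24, 3.51 and 2.62 CPM in sh43 libraries and 18, 18.4 and 19.0 CPM in shCtrl libraries, and it fell with a log2 change of -0.46 ± 0.11 under sh45 and -2.55 ± 0.14 under sh43. Summed with SAA1, the sign under sh45 turned to 0.64, since SAA1 gives most of the sum, and the value under sh43 was -0.57. The longer SAA2 transcript, NM_001127380, held 39.3% ± 3.68 (SD, n = 3) of the SAA2 counts in sh45 libraries, 56.4% ± 3.15 in sh43 libraries and 57.1% ± 3.20 in shCtrl libraries. It had 95, 65 and 68 counts in sh45 libraries, against 128, 142 and 168 in shCtrl libraries. NM_030754 had 133, 93 and 126 counts in sh45 libraries, against 107, 111 and 109 in shCtrl libraries. In these unscaled counts the longer transcript was lower in every sh45 library, while the ranges of NM_030754 overlapped. The transcripts were not tested singly. Reads that SAA2 may share with SAA1 and with SAA2-SAA4 leave both estimates uncertain.

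LCN2 and C3 rose under both hairpins. LCN2 had 18.1, 15.9 and 16 CPM in sh45 libraries, 15.3, 14.2 and 16 CPM in sh43 libraries and 9.19, 9.57 and 7.62 CPM in shCtrl libraries, a log2 change of 0.93 ± 0.12 under sh45 and 0.78 ± 0.12 under sh43. Every hairpin library lay above every shCtrl library, and the hairpins overlapped each other. C3 had 559, 535 and 488 CPM in sh45 libraries, 583, 603 and 610 CPM in sh43 libraries and 385, 375 and 371 CPM in shCtrl libraries. Its log2 change was 0.48 ± 0.05 under sh45 and 0.67 ± 0.05 under sh43, without overlap between groups.

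CFB separated the ZHX2 hairpins most among the members. It had 20.5, 19.8 and 18.5 CPM in sh45 libraries, 1.23, 2.30 and 1.99 CPM in sh43 libraries and 17.5, 21.3 and 15.2 CPM in shCtrl libraries. The sh45 and shCtrl ranges overlapped, with a log2 change of 0.12 ± 0.12 under sh45 (edgeR, adjusted p = 0.432), and all sh43 libraries lay far below, with -3.28 ± 0.18. C1S fell to 1.95, 2.62 and 2.94 CPM in sh43 libraries, against 7.58, 7.54 and 8.03 CPM in shCtrl libraries, a log2 change of -1.63 ± 0.20. In sh45 libraries it had 6.48, 5.83 and 8.38 CPM, a log2 change of -0.16 ± 0.17 that did not pass (edgeR, adjusted p = 0.46). C1R, its partner in the C1 complex, rose under sh45, with 5.89, 5.20 and 6.09 CPM in sh45 libraries against 3.75, 3.77 and 3.02 CPM in shCtrl libraries and a log2 change of 0.71 ± 0.21. In sh43 libraries C1R had 2.96, 1.72 and 3.02 CPM, with a log2 change of -0.47 ± 0.24 (edgeR, adjusted p = 0.0827).

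Set directly against sh43, 6 of the 9 members were higher in sh45 libraries, where 34.2% of all genes were higher, and 2 were lower, where 32.7% were lower. CFB differed most, by a log2 difference of 3.40 ± 0.18, followed by SAA2 with 2.08 ± 0.15, C1S with 1.47 ± 0.20, C1R with 1.18 ± 0.22, SAA1 with 1.16 ± 0.06 and CFI with 1.11 ± 0.11. PTX3 was lower in sh45 libraries, with a log2 difference of -1.29 ± 0.09, as was C3, with -0.18 ± 0.05. LCN2 differed by 0.14 ± 0.11 (edgeR, adjusted p = 0.262). Over all genes, 1268 (9.32%) were called in opposite directions by the 2 ZHX2 hairpins, and SAA1 was the member among them. The ZHX2 level itself was lower in sh43 libraries, so the depth of the knockdown and the identity of the hairpin cannot be told apart.

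The responses of the 2 experiments were compared over all 18 libraries at once, taking as a response the mean of both hairpins against the shCtrl libraries of the same experiment. The USP13 response was higher than the ZHX2 response for 3 of the 9 members, where 22.7% of the 14207 genes tested were higher, and lower for 3, where 20.7% were lower. CFI was higher by a log2 difference of 3.64 ± 0.08, CFB by 1.38 ± 0.17 and C1S by 0.77 ± 0.29. PTX3 was lower, with a log2 difference of -4.76 ± 0.51, as were LCN2, with -0.95 ± 0.22, and C3, with -0.76 ± 0.07. PTX3 averaged 0.519 CPM in sh52, 0.295 CPM in sh50 and 0.601 CPM in shCtrl libraries of the USP13 experiment, too low to be tested there. It entered this fit through the ZHX2 libraries, where it is high, so the USP13 part of its difference is uncertain. SAA1 (-0.14 ± 0.11), SAA2 (0.68 ± 0.50) and C1R (-0.33 ± 0.34) did not pass (edgeR, adjusted p = 0.31, 0.279 and 0.467). The USP13 mean joins estimates of opposite sign for SAA1, SAA2, LCN2, C3, CFI and C1S, and the ZHX2 mean does so for SAA1, CFB and C1R. For CFB the ZHX2 mean joins 0.12 under sh45 and -3.28 under sh43, of which only the sh43 change passed. Leaving out 1 library gave 0.24 to 1.11 for the SAA2 difference, which passed in none of these fits. The C1S call was lost without sh50 replicate 1 (adjusted p = 0.0811), sh52 replicate 1 (0.0719) or shCtrl replicate 1 (0.0505) or 3 (0.083) of the USP13 experiment, and without sh43 replicate 1 (0.0582) or shCtrl replicate 3 (0.0573) of the ZHX2 experiment.

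Levels of different genes were compared per transcript length, in TPM. In the USP13 experiment CFI led in every group, at 217 TPM ± 18.5 (SD, n = 3) in sh52, 173 TPM ± 9.20 in sh50 and 201 TPM ± 9.60 in shCtrl libraries. SAA1 came next, at 120 TPM ± 9.73 in sh52, 30.4 TPM ± 1.59 in sh50 and 59.4 TPM ± 5.16 in shCtrl libraries, and C3 after it, at 27.7 TPM ± 1.36 in sh52, 10.5 TPM ± 0.794 in sh50 and 19.4 TPM ± 0.881 in shCtrl libraries. LCN2 and CFB followed and overlapped in sh50 and in shCtrl libraries. SAA2, C1S and C1R averaged 0.521 to 3.53 TPM and overlapped their neighbours in the order, and PTX3 was last. In the ZHX2 experiment SAA1 led, at 814 TPM ± 25.9 in sh45, 390 TPM ± 38.4 in sh43 and 551 TPM ± 17.0 in shCtrl libraries. C3 came next, at 160 TPM ± 14.0 in sh45, 198 TPM ± 0.828 in sh43 and 132 TPM ± 3.94 in shCtrl libraries. PTX3 had rank 5 in sh45, at 18.4 TPM ± 1.78, rank 3 in sh43, at 49.1 TPM ± 3.16, and the last rank in shCtrl libraries, at 1.99 TPM ± 0.437. CFI had rank 7 in sh45, at 9.95 TPM ± 0.661, rank 6 in sh43, at 5.04 TPM ± 0.383, and rank 3 in shCtrl libraries, at 100 TPM ± 3.29. CFB was the lowest of the 9 in sh43 libraries, at 1.25 TPM ± 0.363, where C1S and C1R were its overlapping neighbours.

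The control libraries of the experiments did not start from the same levels. SAA1 averaged 110 CPM in the shCtrl libraries of the ZHX2 experiment and 12.0 CPM in those of the USP13 experiment, 9.22-fold apart, and C3 averaged 377 CPM in the ZHX2 controls and 58.5 CPM in the USP13 controls, 6.45-fold apart. SAA2 averaged 18.5 CPM in the ZHX2 controls and 0.716 CPM in the USP13 controls. CFI was the reverse, with 115 CPM in the ZHX2 controls and 240 CPM in the USP13 controls, and CFB overlapped, with 18 CPM in the ZHX2 controls and 16.7 CPM in the USP13 controls. The experiment is the only labelled difference between the controls, and a batch and a biological difference cannot be told apart.

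Over the 18 libraries, each centred on the shCtrl mean of its own experiment, the members did not form 1 pattern. Pearson's r was 0.929 between LCN2 and C3, 0.895 between SAA2 and C1S, 0.893 between SAA2 and CFB and 0.878 between CFB and C1S. It was -0.986 between PTX3 and CFI and 0.582 between SAA1 and SAA2. These are descriptions over libraries that share group, scaling and controls, among 36 pairs. The genes outside the list whose profile was most like the mean of the 9 members were IFI6 (r = 0.943), CD68 (0.912), HLA-F (0.907), TADA3 (0.905) and SHANK2 (0.897). IFI6, an interferon-induced gene, had 157, 173 and 171 CPM in sh52, 94.0, 83.6 and 69.9 CPM in sh50 and 163, 160 and 171 CPM in shCtrl libraries of the USP13 experiment. In the ZHX2 experiment it had 133, 156 and 134 CPM in sh45, 45.7, 44.5 and 53.2 CPM in sh43 and 88.6, 93.5 and 82.0 CPM in shCtrl libraries. IFI6 was picked for its likeness to the members, so its order of groups is a description.

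Most other complement components were too low to be tested. Of 24 further components, 9 passed the filter on low counts in the USP13 experiment and 7 in the ZHX2 experiment. Under sh52, 2 of 9 rose and none fell, where 5.45% of all genes rose and 6.56% fell. Under sh50 likewise 2 rose and none fell, where 10.2% of all genes rose and 11.3% fell. Both were C4A and C4B, near-identical genes of the classical pathway whose separate counts are uncertain. C4A rose by a log2 change of 1.27 ± 0.24 under sh52 and 1.18 ± 0.24 under sh50, and C4B by 1.07 ± 0.31 and 1.53 ± 0.30 under the same hairpins. Both were low in this experiment, with 28, 29 and 24 counts for C4A and 23, 16 and 26 for C4B in shCtrl libraries. The C4B call under sh52 was lost without sh52 replicate 2 (edgeR, adjusted p = 0.128) or shCtrl replicate 1 (0.0516) or 2 (0.16). In the ZHX2 experiment 4 of 7 fell under sh45, where 27.3% of all genes fell, and 6 of 7 under sh43, where 35.2% fell. None rose under either hairpin, where 25.3% of all genes rose under sh45 and 33.5% under sh43. The list's median log2 change was -0.66 under sh45 and -2.61 under sh43. C1RL, a C1r-like protease, had 40.4, 36.7 and 40.1 CPM in sh45, 10.2, 10.4 and 8.90 CPM in sh43 and 62.3, 64.0 and 59.1 CPM in shCtrl libraries, without overlap. The log2 change of C4A was -1.50 ± 0.39 under sh45 and -2.62 ± 0.45 under sh43, and that of C4B was -1.77 ± 0.35 under sh45 and -3.37 ± 0.44 under sh43. That of MBL2, the mannose-binding lectin of the lectin pathway, was -3.17 ± 0.46 under sh45 and -2.61 ± 0.43 under sh43. C4A, C4B and MBL2 were each at 3.67 CPM or less in every ZHX2 library.

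Of 18 further regulators and receptors, 8 were tested in each experiment. CLU, which encodes clusterin, an inhibitor of the membrane attack complex, fell under sh52 to 392, 390 and 387 CPM and rose under sh50 to 547, 536 and 524 CPM, against 455, 426 and 443 CPM in shCtrl libraries. Its log2 change was -0.18 ± 0.05 under sh52 and 0.28 ± 0.05 under sh50, opposite in sign to that of SAA1 and C3. The call under sh52 was lost without sh52 replicate 3 (edgeR, adjusted p = 0.0555) or shCtrl replicate 1 (0.074). C3AR1, the receptor of the C3a fragment, fell with a log2 change of -1.49 ± 0.42 under sh52 and -1.74 ± 0.42 under sh50 and was at 3.19 CPM or less in every library of the USP13 experiment. Its sh52 call was lost without sh52 replicate 1 (adjusted p = 0.0784) or shCtrl replicate 1 (0.14). Under sh45, 5 of the 8 fell, where 27.3% of all genes fell, and none rose, where 25.3% rose. Under sh43, 4 fell, where 35.2% of all genes fell, and 2 rose, where 33.5% rose. The 5 under sh45 include C3AR1, with a log2 change of -0.80 ± 0.31. That call was lost without sh45 replicate 1 (edgeR, adjusted p = 0.116) or 2 (0.0728), without shCtrl replicate 1 (0.105) or 2 (0.0945), with no filter on low counts (0.0551) and with DESeq2's Wald test (0.0614). CLU fell with a log2 change of -0.23 ± 0.05 under sh45 and -1.67 ± 0.05 under sh43, as did SUSD4, a membrane inhibitor of complement, with -1.14 ± 0.19 under sh45 and -1.91 ± 0.20 under sh43. CD46, the membrane cofactor of factor I, had a log2 change of -0.49 ± 0.05 under sh45 and -0.11 ± 0.05 under sh43. The sh43 call of CD46 was lost without any 1 of the 9 libraries, with adjusted p between 0.052 and 0.139. C5AR1, a receptor of C5a, rose under sh43 with a log2 change of 2.66 ± 0.60. This rests on few counts, with 16, 19 and 12 in sh43, 8, 4 and 3 in sh45 and 0, 3 and 4 in shCtrl libraries. C5AR1 was near the floor outside sh43, so the size of its change is uncertain.

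**Figure D3:**
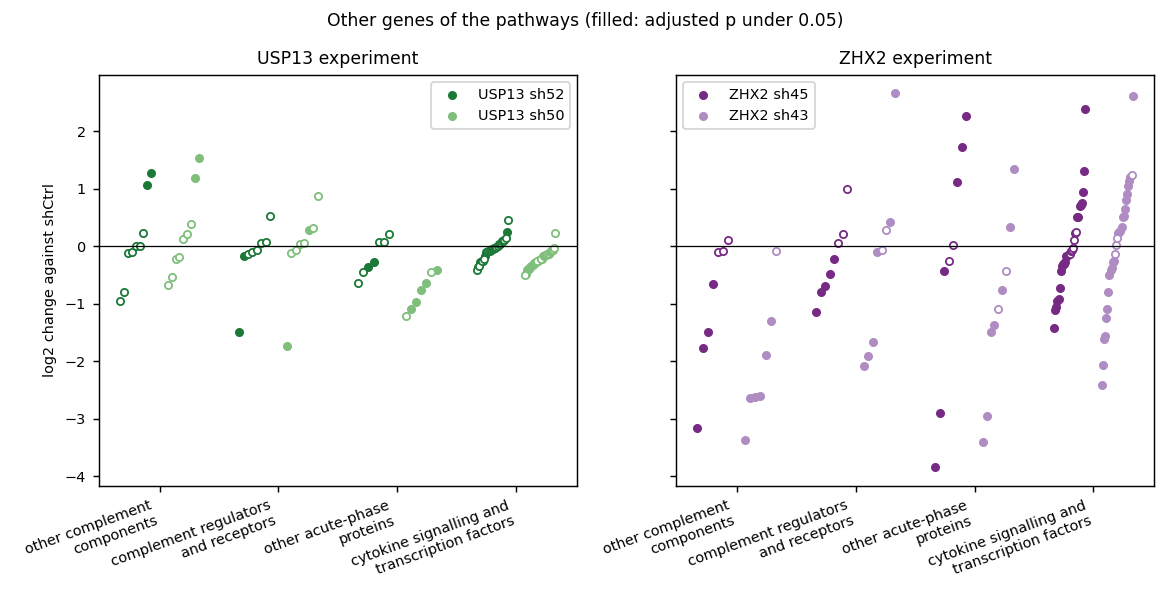
Log2 change of each tested gene of the 4 further lists under each hairpin against the shCtrl libraries of its own experiment, with genes sorted by change within a list and filled points at an adjusted p under 0.05; FGB under sh45 is left out because it had no counts there. The further complement components of the ZHX2 experiment lie mostly below 0, with medians of -0.66 under sh45 and -2.61 under sh43.

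Of 25 other acute-phase proteins, 7 were tested in the USP13 experiment. Under sh52, 2 fell, where 6.56% of all genes fell, and under sh50, 5 fell, where 11.3% fell. None rose under either hairpin, where 5.45% of all genes rose under sh52 and 10.2% under sh50. Set directly against sh50, 3 of the 7 were higher in sh52 libraries, where 5.48% of all genes were. None was lower, where 4.74% of all genes were, and the list median was 0.50 on the log2 scale. The estimates of all 7 were above 0 in that contrast, as were those of SAA1 and C3. CP, which encodes the copper oxidase ceruloplasmin, had 63.6, 61.0 and 58.5 CPM in sh52, 34.4, 33.1 and 36.8 CPM in sh50 and 76.9, 75.2 and 69.6 CPM in shCtrl libraries. SERPINA1, which encodes alpha-1-antitrypsin, had 33.7, 30.5 and 30.3 CPM in sh52, 21.0, 25.4 and 25.5 CPM in sh50 and 45.9, 39.2 and 37.5 CPM in shCtrl libraries. Both were below their controls in all hairpin libraries and lowest under sh50. The log2 change of CP was -0.28 ± 0.07 under sh52 and -1.09 ± 0.07 under sh50, and that of SERPINA1 -0.37 ± 0.10 under sh52 and -0.76 ± 0.10 under sh50. The sh52 call of CP was lost without sh52 replicate 3 (edgeR, adjusted p = 0.0703) or shCtrl replicate 1 (0.0671) or 2 (0.06), and that of SERPINA1 without sh52 replicate 3 (0.056) or shCtrl replicate 1 (0.101). LRG1, a leucine-rich plasma glycoprotein, fell under sh50, with -0.98 ± 0.23.

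In the ZHX2 experiment 9 of the 25 were tested, of which 3 rose and 4 fell under sh45, where 25.3% of all genes rose and 27.3% fell, and 2 rose and 5 fell under sh43, where 33.5% rose and 35.2% fell. SERPINA1 rose to 152, 147 and 144 CPM in sh45 and 84.4, 85.0 and 86.6 CPM in sh43 libraries, against 67.6, 71.2 and 65.3 CPM in shCtrl libraries. MT2A, a metallothionein of the acute phase, rose with a log2 change of 1.73 ± 0.05 under sh45 and 1.34 ± 0.05 under sh43. LBP, the lipopolysaccharide-binding protein, fell to 1.18, 0.788 and 0.917 CPM in sh45 and 0.360, 0.830 and 0.874 CPM in sh43 libraries, against 8.11, 7.47 and 6.52 CPM in shCtrl libraries. LRG1 fell to 0.262, 0.158 and 0 CPM in sh45 and 0, 0.0639 and 0.795 CPM in sh43 libraries, against 2.14, 1.96 and 2.20 CPM in shCtrl libraries. TNFAIP6, which encodes a hyaluronan-binding partner of pentraxin 3, fell with a log2 change of -0.44 ± 0.14 under sh45 and -1.37 ± 0.15 under sh43. The sh45 call of TNFAIP6 was lost without sh45 replicate 2 (edgeR, adjusted p = 0.0561) or shCtrl replicate 3 (0.0668). FGB, the fibrinogen beta chain, had 0 counts in all sh45 libraries, 11, 6 and 7 counts in sh43 libraries and 12, 8 and 12 counts in shCtrl libraries. CP did not pass under sh45 (0.02 ± 0.06, adjusted p = 0.76) and fell under sh43, with a log2 change of -1.50 ± 0.06. SAA4, which overlaps the SAA2-SAA4 readthrough and whose count is therefore uncertain, was higher in sh45 than in sh43 libraries by a log2 difference of 3.35. It had 17, 16 and 34 counts in sh45, 2, 0 and 4 in sh43 and 4, 7 and 2 in shCtrl libraries. SAA4 was near the floor outside sh45, so the size of this difference is uncertain as well.

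Genes of the cytokine signals that drive the acute phase were nearly all expressed, with 28 of 31 tested in the USP13 experiment and 29 in the ZHX2 experiment. Under sh52, 1 rose and 4 fell, where 5.45% of all genes rose and 6.56% fell, and under sh50 none rose and 12 fell, where 10.2% rose and 11.3% fell. The list's median log2 change was -0.05 under sh52 and -0.23 under sh50. RELA, which encodes the p65 protein of NF-kB, fell to 61.7, 60.5 and 69.7 CPM in sh52 and 65.5, 65.0 and 63.0 CPM in sh50 libraries, against 86.2, 76.9 and 82.7 CPM in shCtrl libraries. Its log2 change was -0.36 ± 0.07 under sh52 and -0.35 ± 0.07 under sh50. TNFRSF1A, a receptor of tumour necrosis factor, had a log2 change of -0.17 ± 0.05 under sh52 and -0.18 ± 0.05 under sh50. SOCS3, the feedback inhibitor of STAT3 signalling, had -0.25 ± 0.08 under sh52 and -0.29 ± 0.08 under sh50. Under sh52 the TNFRSF1A call was lost without sh52 replicate 3 (edgeR, adjusted p = 0.102) or shCtrl replicate 1 (0.084), 2 (0.0514) or 3 (0.0652). The SOCS3 call was lost there without sh50 replicate 1 (adjusted p = 0.0578) or 2 (0.0517), sh52 replicate 1 (0.194) or shCtrl replicate 2 (0.141) or 3 (0.119). CEBPD also fell under sh52, with a log2 change of -0.27. That call was lost without sh52 replicate 1 (edgeR, adjusted p = 0.177) or 2 (0.131). It was also lost without sh50 replicate 1 (0.0593) or shCtrl replicate 1 (0.198) or 3 (0.103). IL6 was higher in sh52 than in sh50 libraries by a log2 difference of 0.97 ± 0.26, with 3.96, 4.93 and 3.80 CPM in sh52 libraries against 2.24, 2.25 and 1.98 CPM in sh50 libraries, and passed against shCtrl under neither hairpin.

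Under sh45, 9 of the 29 rose and 13 fell, where 25.3% of all genes rose and 27.3% fell, and under sh43, 13 rose and 12 fell, where 33.5% rose and 35.2% fell. Some of these counts, such as the 9 that rose under sh45 and the 12 that fell under sh43, lie near those shares. IL6, the main inducer of the acute phase, rose to 24.3, 25.8 and 21.7 CPM in sh45 and 28.3, 29.2 and 26.4 CPM in sh43 libraries, against 4.44, 4.57 and 4.67 CPM in shCtrl libraries. Its log2 change was 2.39 ± 0.12 under sh45 and 2.61 ± 0.12 under sh43, the same direction as PTX3, LCN2 and C3. CFI and SAA2 went the other way under both hairpins. SAA1 rose under sh45 and fell under sh43, CFB and C1S fell only under sh43, and C1R rose only under sh45. The part of IL6 in these changes was not tested. LIF, a cytokine of the same family, rose with a log2 change of 0.71 ± 0.05 under sh45 and 0.91 ± 0.05 under sh43, and IL1RAP, a co-receptor of interleukin-1, with 0.69 ± 0.08 under sh45 and 1.20 ± 0.08 under sh43. The NF-kB genes NFKB2 (0.51 ± 0.06 and 0.64 ± 0.06), RELB (0.75 ± 0.09 and 0.51 ± 0.10) and NFKBIA (0.95 ± 0.07 and 0.81 ± 0.07) rose under sh45 and sh43. So did the transcription factors CEBPB, with 0.51 ± 0.07 and 1.13 ± 0.06, and IRF1, with 0.22 ± 0.08 and 1.05 ± 0.07. The IRF1 call under sh45 was lost without sh45 replicate 1 (edgeR, adjusted p = 0.0627) or shCtrl replicate 3 (0.126).

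STAT3, the main interleukin-6 signal carrier, fell with a log2 change of -0.43 ± 0.05 under sh45 and -0.50 ± 0.05 under sh43. NFKBIZ, a nuclear cofactor of NF-kB, also fell, with a log2 change of -1.06 ± 0.06 under sh45 and -1.61 ± 0.06 under sh43. CEBPD fell to 38.1, 38.1 and 44.0 CPM in sh43 libraries, against 160, 177 and 165 CPM in shCtrl libraries. In sh45 libraries CEBPD had 157, 137 and 149 CPM, a log2 change of -0.18 ± 0.06 whose call was lost without sh45 replicate 2 (edgeR, adjusted p = 0.137) or shCtrl replicate 2 (0.0824). CEBPA fell (-1.42 ± 0.29 under sh45 and -1.09 ± 0.28 under sh43), as did OSMR, the oncostatin M receptor (-0.34 ± 0.05 and -0.79 ± 0.05). JAK1, IL1R1 and TNFRSF1A fell under both hairpins with log2 changes between -0.42 and -0.18. IL6ST (-0.72 ± 0.07 under sh45, 0.34 ± 0.06 under sh43) and SOCS3 (-0.31 ± 0.09 and 0.25 ± 0.09) were called in opposite directions. The SOCS3 calls were lost without sh45 replicate 2 under sh45 (adjusted p = 0.0517) and without shCtrl replicate 3 under sh43 (0.0964).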

How the data were processed

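RNA-seq libraries of 786-O cells were quantified by the authors with Salmon, 1 file per library listing RefSeq transcripts, per the file headers. The deposited estimated counts (NumReads) were not scaled for depth and were whole within 1e-06. TPM, as deposited, is corrected for transcript length and depth and served only to compare levels between genes. The deposited lengths and effective lengths entered no test. Per the submitters' processing notes, build hg19 was used, with Salmon 0.11.3, STAR 2.5.2b, DESeq2 1.14.1 and cutadapt 1.12 in an order not stated. The library kit named in the labels does not keep strand.

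Transcript counts, after rounding to whole numbers, were added up per gene. Of 60422 transcripts per file, 1342 were further copies, 59301 were named by the RefSeq table, 684 by GENCODE release 29 and 437 not at all. The unnamed held 0.0854% to 0.12% of a library's counts and were left out. Replicate pairs differed by more than sampling noise, with a chi-square per degree of freedom of 2.333 to 6.68 over 18 pairs.

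Genes were filtered with filterByExpr, scaled by TMM and tested with edgeR 4.0.16 (quasi-likelihood F-test, R 4.3.3, limma 3.58.1), with 1 mean per group, 9 libraries per experiment and Benjamini-Hochberg adjustment over 13715 genes (USP13) or 13604 (ZHX2). The difference between experiments was tested over 18 libraries and 14207 genes. The fit was tested on simulated counts. Alternatives were DESeq2 size factors, upper-quartile factors, the DESeq2 1.42.0 Wald test, no filter, a replicate block, SAA1 and SAA2 summed, only the 2 groups compared and each library left out. Sequences and promoter windows are RefSeq's (GRCh38.p14) or GENCODE's.

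The members, the 4 further lists, the markers and the tests were chosen with earlier results of these data known. Named genes are all members, the targets, list genes called under both hairpins of an experiment or among the 2 largest called changes of a contrast, and the 5 genes of most similar profile, from log2 CPM with an offset of 0.5. VEPH1 and SAA2-SAA4 were added as genes that overlap members, and a few other list genes were named after their values were seen. Some list genes that this rule names are not reported here.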

Additional observations from a re-analysis of the deposited data

Results flagged for a closer look

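In 3 cases the hairpins against 1 target moved a member in opposite directions, each called against the shared shCtrl libraries. SAA1 was higher in sh52 than in sh50 libraries of the USP13 experiment by a log2 difference of 1.97. C3 was higher in sh52 than in sh50 libraries by 1.34. SAA1 was higher in sh45 than in sh43 libraries of the ZHX2 experiment by 1.16. Each difference was itself called by edgeR's quasi-likelihood test over all genes, but SAA1 and C3 were among the genes chosen with these contrasts known, so the values are descriptions. Groups of 3 libraries are too small for a test of single outlying libraries.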

How the results depend on the processing

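Of 162 results on members and list genes, 129 kept their direction and their side of the threshold under all alternatives run. Of 2560 values compared, 2455 did so, 91 lost a call, 5 gained one and 9 turned sign. Leaving out 1 library gave 2 to 6 members lower under sh50 (6 with all libraries), 5 to 6 members higher in sh52 than in sh50 (5), and 2 to 3 members with a higher USP13 than ZHX2 response (3). The other counts of members, higher or lower, did not change when a library was left out. With SAA1 and SAA2 summed, 1 member fell under sh45 in place of 2, the summed log2 change under sh45 was 0.64 (adjusted p = 1.1e-10) against -0.46 for SAA2 alone, and the difference of responses was -0.03 against 0.68. Under sh52 against shCtrl, without sh52 replicate 1, C1R turned to 0.07, C1S to -0.02 and CFB to 0.07, and C1R in sh52 against sh50 turned to 0.19. CFB under sh52 came to 0.00 with upper-quartile factors and without shCtrl replicate 1 or 3. Over all left-out libraries, these ranges were -0.70 to 0.07 (C1R), -0.02 to 0.45 (C1S) and -0.09 to 0.07 (CFB) for sh52 against shCtrl and -0.58 to 0.19 (C1R) for sh52 against sh50. None of these turned values but the summed 0.64 had passed.

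LCN2 under sh52 passed with no filter (adjusted p = 0.0464), as did C1S in sh52 against sh50 (0.0401). Replicate numbers showed no pairing of libraries. For this, the deviation of each gene from its group mean was correlated between same-numbered libraries of different groups. These correlations were -0.135 to 0.070 (USP13) and -0.085 to 0.047 (ZHX2), with 0 of 9 pairs over 0.1 in each. With the replicate block, 5 members fell under sh50 in place of 6, since CFI did not pass (edgeR, adjusted p = 0.0511), and no other count of members changed. The block also ended the sh52 calls of CEBPD (0.0597) and SOCS3 (0.0501) and the sh43 call of CD46 (0.0707). Counts over all genes moved by more than 1.5 times only in the USP13 experiment: without shCtrl replicate 1 or 2, 903 or 912 genes rose under sh50 (1395 with all libraries) and 413 or 409 under sh52 (748), and without shCtrl replicate 2, 582 fell under sh52 (900). Without sh50 replicate 1 or 2, 462 or 408 genes were higher in sh52 than in sh50 (751) and 377 or 277 lower (650). The causes were not tested. Low counts limit C1R, C1S and, in the USP13 experiment, SAA2, LCN2 and PTX3. They also limit list genes such as C4A, C4B, C5AR1 and SAA4.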
